A study of Mus musculus with 7 samples.

Results

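Genes of the inflammasome pathway and of interleukin signalling were described in the mouse macrophage line RAW264.7, which was established from a tumour. They were taken from a list of 7 genes. These were the sensors Nlrp3 and Aim2, the adaptor Pycard, the proteases Casp1 and Casp4, the cytokine gene Il18 and the signalling gene Irak2. Each gene was read from its brightest single-symbol probe set, and 6 of the 7 were found among the 9999 named genes. Pycard had no single-symbol probe set among them and was not analysed here. Each of the 6 genes had 1 probe set, namely 1425412_at for Nlrp3, 1426619_at for Aim2, 1449265_at for Casp1, 1449591_at for Casp4, 1417932_at for Il18 and 1436507_at for Irak2.

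The study compared 4 arrays of cells titled RAW GfI1-1, which the series describes as Gfi1 knockout, with 3 arrays of wild-type RAW264.7 cells. Gfi1 encodes a zinc finger repressor of transcription in blood cells. Both groups were untreated cells grown in serum-containing medium and sampled at the time point called T0. How the knockout was made, and whether the 4 knockout arrays stand for 1 or several clones, is not stated in the labels. Replicates are named biological, but no culture or day is given for them, so the p-values rest on array-to-array spread that may be technical.

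An inflammasome is a protein complex that a sensor assembles after it meets a danger signal in the cytosol. The sensor recruits the adaptor ASC, the product of Pycard, which gathers pro-caspase-1. Active caspase-1 cuts the precursors of IL-1beta and IL-18 and opens gasdermin D, which makes pores in the plasma membrane and leads to a lytic death called pyroptosis. Mouse Casp4 encodes the protein usually called caspase-11, which detects lipopolysaccharide inside the cell and cuts gasdermin D directly. Cytokines of the IL-1 family then signal through receptors that use MyD88 and the IRAK kinases. RAW264.7 cells are widely known as cells that make little or no ASC protein.

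Some features of the arrays bear on every value. The knockout arrays formed 2 pairs: taking log2 differences between 2 arrays probe set by probe set, their SD was 0.14 and 0.16 within the pairs of replicates 3 and 4 and of replicates 1 and 2, and 0.52 to 0.54 between the pairs, against 0.13 to 0.19 between wild-type arrays. The only Gfi1 probe set read higher in the arrays labelled knockout, at 4.93, 5.02, 3.97 and 3.97 in replicates 1 to 4 on the log2 scale, against 2.66, 2.85 and 2.98 in wild type. The probe set was dim, above 10.6% of genes in knockout and 2.58% in wild type, so part of its signal can be background. Whether it lies inside the edited stretch is unknown, which means that it cannot check the labels on which every direction below rests. Of 11 macrophage markers, 10 were measured, and 7 of these fell and 0 rose, where 21.6% of all genes fell. The falls ran up to that of Mpeg1, which encodes a pore-forming protein, at -2.03 (SE 0.17, limma adjusted p = 0.000181), and included Adgre1, which encodes F4/80, at -1.51 (SE 0.07, limma adjusted p = 1.77e-05). With the knockout pairs and wild type as random blocks 5 of the 10 passed, where 9.04% of all genes did. Without knockout replicates 3 and 4, 2 rose and 7 fell, in a fit where 68.1% of all genes passed. Without replicates 1 and 2, 0 rose and 9 fell, where 57.0% passed. Cd14 and Itgam, named after their values were seen, did not pass in the main fit. From the wild-type mean Cd14 stood at 0.57, 0.60, -0.01 and -0.02 in knockout replicates 1 to 4, and Itgam at 0.24, 0.22, -0.55 and -0.49. The summed intensity of the 10 markers ran from 27467 to 28787 in knockout and from 41236 to 41525 in wild type. The part of this fall in the results was not tested, and in bulk RNA fewer cells of a type and less RNA per cell cannot be told apart. The defining macrophage genes Csf1r and Lyz2 also fell, by 0.60 and 0.45 (adjusted p = 0.000264 and 0.00374), and were bright in both groups, at 12.29 ± 0.04 and 12.86 ± 0.12 in knockout (SD, n = 4) and 12.89 ± 0.02 and 13.31 ± 0.02 in wild type (SD, n = 3). The listed markers of neutrophils, B cells, T cells, dendritic cells, fibroblasts and epithelium were not analysed here, with 0 of them among the measured genes.

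In the arrays labelled knockout, 5 of the 6 measured genes rose and 1 fell. The sensors Nlrp3 and Aim2, the lipopolysaccharide-sensing protease Casp4, the cytokine gene Il18 and the signalling gene Irak2 were higher by 1.49-fold to 1.96-fold. Casp1, the protease that matures IL-18, was instead 1.56-fold higher in wild type. All 6 passed an adjusted p of 0.05 in a limma fit over all genes. The background was broad: 43.1% of the 9999 genes passed in either direction, 21.5% higher and 21.6% lower in knockout. For 5 of the genes all 4 knockout arrays were above all 3 wild-type arrays (26.5% of all genes), and for Casp1 all were below (27.9%); groups did not overlap for 54.5% of genes in either direction. The median log2 difference of the 6 genes was 0.74, with 0.74 also the median of the absolute differences, beside -0.01 and 0.28 over all genes. With the knockout pairs and the wild-type arrays as random blocks, 3 of the 6 passed (Nlrp3, Aim2 and Casp4), where 9.04% of all genes did. That fit treats arrays of the same pair as correlated rather than independent. All 3 wild-type arrays form 1 block there, so the comparison lies between blocks only. The same correlation (0.79) was used for all genes. With so few blocks, a pass in that fit carries limited weight.

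**Figure D1:**
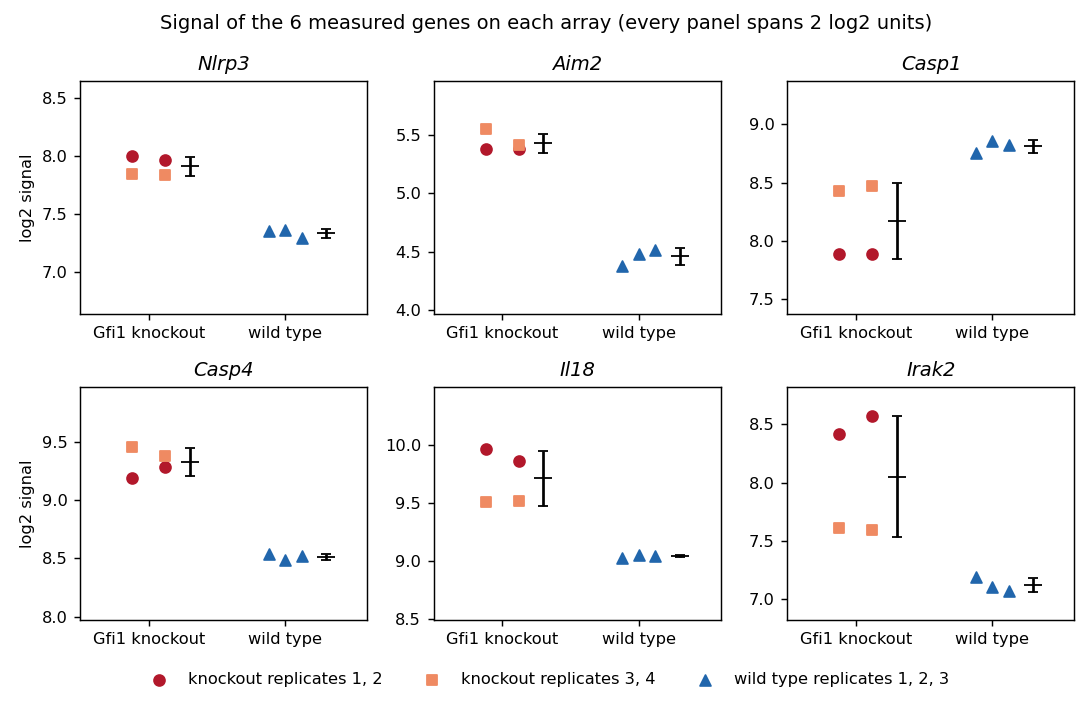
Log2 signal of each measured gene on every array, with Gfi1 knockout on the left and wild type on the right of each panel; symbols are single arrays, and the bars give the mean and SD (n = 4 and n = 3). Panels all span the same log2 range. The knockout arrays lie above all wild-type arrays for 5 genes and below them for Casp1, and knockout replicates 1 and 2 stand apart from 3 and 4 most widely for Irak2 and Casp1.

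Nlrp3 encodes a cytosolic sensor that responds to potassium loss and membrane damage, and its transcript is known to be induced by NF-kappaB. Its log2 signal was 7.996, 7.96, 7.85 and 7.83 in knockout replicates 1 to 4, against 7.36, 7.36 and 7.29 in wild-type replicates 1 to 3. The knockout arrays lay close together and clear of wild type. The means were 7.91 ± 0.08 in knockout (SD, n = 4) and 7.34 ± 0.04 in wild type (SD, n = 3), 0.57 apart (SE 0.07, limma adjusted p = 0.000676). The step between the knockout pairs was 0.14, beside a wild-type range of 0.07. The size of the Nlrp3 change exceeded that of 77.4% of genes.

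Aim2 encodes a sensor of double-stranded DNA in the cytosol. It read 5.38, 5.38, 5.55 and 5.42 in knockout replicates 1 to 4, against 4.38, 4.48 and 4.52 in wild type. All 4 knockout arrays were about 1 log2 unit above wild type, with no step between the pairs beyond the wild-type range (-0.11 for replicates 1 and 2 minus 3 and 4, beside 0.14). On average Aim2 read 5.43 ± 0.08 in knockout (SD, n = 4) and 4.46 ± 0.07 in wild type (SD, n = 3). Its rise of 0.97 (SE 0.07, limma adjusted p = 0.000107) exceeded the change of 91.4% of genes. Aim2 was dim, above 19.1% of genes in knockout and 10.3% in wild type, so part of its signal can be background.

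Casp1 and Casp4 are neighbours on mouse chromosome 9 and moved in opposite directions. Casp1 read 7.89, 7.89, 8.42 and 8.47 in knockout replicates 1 to 4, against 8.75, 8.86 and 8.82 in wild type. All knockout arrays were lower, and replicates 1 and 2 were lower than 3 and 4. The means were 8.17 ± 0.33 in knockout (SD, n = 4) and 8.81 ± 0.05 in wild type (SD, n = 3), a difference of -0.65 (SE 0.17, 95% interval -1.05 to -0.25, limma adjusted p = 0.0199). In replicates 1 and 2 together Casp1 stood at -0.93 from the wild-type mean, and in replicates 3 and 4 at -0.36. The call did not survive the random blocks (adjusted p = 0.113), a test against a fold of 1.2 (0.125) or leaving out wild-type replicate 1, 2 or 3 (adjusted p = 0.0543, 0.0695 and 0.0654). The difference stayed below 0 in each of these fits, but none of them could have reversed it. The random blocks and the fold test keep the main difference, and all knockout arrays lay below all wild-type arrays.

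Casp4 read 9.19, 9.29, 9.46 and 9.38 in knockout replicates 1 to 4, against 8.54, 8.48 and 8.52 in wild type. Every knockout array was higher, here with replicates 3 and 4 above replicates 1 and 2. Casp4 averaged 9.33 ± 0.12 in knockout (SD, n = 4) and 8.51 ± 0.03 in wild type (SD, n = 3), which differ by 0.82 (SE 0.08, limma adjusted p = 0.000308). The rise was 1.65-fold in replicates 1 and 2 and 1.87-fold in replicates 3 and 4. Casp12, which follows Casp4 on the chromosome, was not analysed here.

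The promoter windows of this caspase pair and of the sensors are shown because the 4 genes moved in unlike directions. Each runs from 250 bases before to 50 bases after an annotated start, from RefSeq on GRCm38.p6, and all 7 genes of the list matched the promoter table. Capitals mark matches on either strand to the NF-kappaB motif, to AATC, the core bound by GFI1, or to GAGGAAGT, a PU.1 element. Casp4 lies at chr9:5308599-5308898, Casp1 at chr9:5298267-5298566, the farther upstream of the annotated Nlrp3 starts at chr11:59541319-59541618 and Aim2 at chr1:173420354-173420653, all on the plus strand.
Casp4: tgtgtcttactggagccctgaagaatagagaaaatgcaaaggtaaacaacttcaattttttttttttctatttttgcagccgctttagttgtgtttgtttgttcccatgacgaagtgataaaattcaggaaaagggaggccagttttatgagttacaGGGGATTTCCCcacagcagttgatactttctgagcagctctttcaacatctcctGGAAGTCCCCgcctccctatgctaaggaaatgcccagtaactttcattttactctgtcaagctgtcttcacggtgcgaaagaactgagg
Casp1: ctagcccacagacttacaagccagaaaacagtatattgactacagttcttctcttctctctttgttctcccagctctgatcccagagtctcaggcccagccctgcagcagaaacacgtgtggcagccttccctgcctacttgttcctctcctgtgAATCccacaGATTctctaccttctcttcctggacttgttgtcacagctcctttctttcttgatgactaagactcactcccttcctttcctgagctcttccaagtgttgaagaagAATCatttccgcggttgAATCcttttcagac
Nlrp3: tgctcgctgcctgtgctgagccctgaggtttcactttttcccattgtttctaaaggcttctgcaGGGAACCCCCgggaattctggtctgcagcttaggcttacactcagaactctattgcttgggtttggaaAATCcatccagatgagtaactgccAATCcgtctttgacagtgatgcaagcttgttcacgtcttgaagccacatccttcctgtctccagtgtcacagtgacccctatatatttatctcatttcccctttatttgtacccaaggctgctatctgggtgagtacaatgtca
Aim2: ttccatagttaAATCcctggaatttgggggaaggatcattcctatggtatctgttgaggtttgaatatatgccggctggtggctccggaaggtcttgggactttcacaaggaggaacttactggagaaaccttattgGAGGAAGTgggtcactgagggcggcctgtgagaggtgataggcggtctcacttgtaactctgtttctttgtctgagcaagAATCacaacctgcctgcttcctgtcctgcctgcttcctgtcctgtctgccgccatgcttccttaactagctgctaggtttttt
In Casp4 the NF-kappaB motif matched at bases -93 to -83 (overlapping matches) and at -39 to -30, counting the annotated start as 0, and an AATC core lay inside the first of these on the other strand. A second Casp4 start, 11 bases downstream, has the same matches. In the Nlrp3 window the NF-kappaB motif matched at -186 to -177 on both strands, and the window of the other Nlrp3 start had 0 matches. The windows of Aim2, Casp1, Il18, Irak2 and Pycard had 0 NF-kappaB matches. Of 32851 promoter windows of the same length, 8.46% held an NF-kappaB match. The AATC core was present in all of the listed genes' windows, with 4 matches in Casp1, but 73.1% of all windows held it. The PU.1 element was found in Aim2 and Pycard, and in 3.20% of all windows. The interferon-stimulated response element, searched by its usual consensus (3.44% of all windows), and the AP-1 site TGANTCA (7.81%) had 0 matches in the listed genes. These are letter matches and not measured binding sites.

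**Figure D2:**
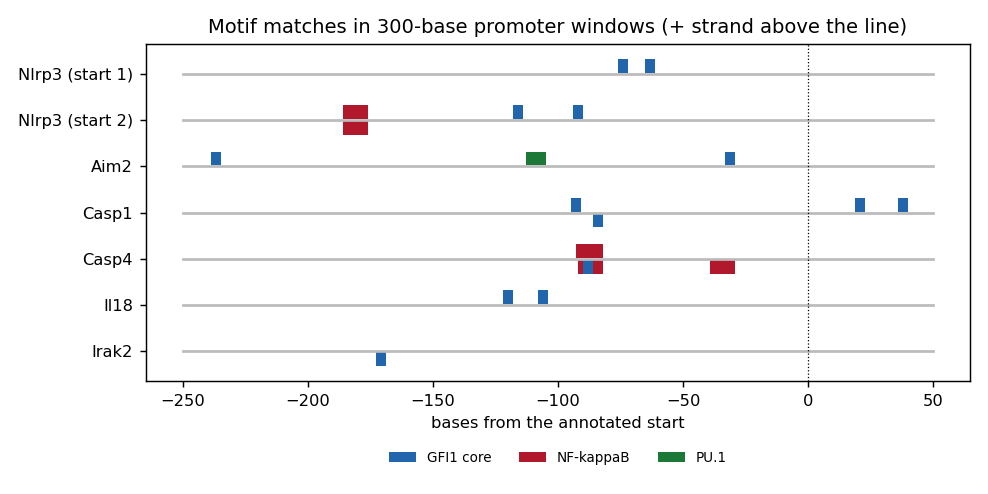
Positions of motif matches in the 300-base promoter windows of the measured genes, in bases from the annotated start, with matches on the plus strand drawn above each line and matches on the other strand below it. NF-kappaB matches appear in Casp4 and at 1 of the Nlrp3 starts, and the short GFI1 core appears in every window.

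Il18 encodes the precursor of IL-18, which caspase-1 cuts and which drives interferon-gamma production in lymphocytes. Its log2 signal was 9.96, 9.86, 9.51 and 9.52 in knockout replicates 1 to 4, against 9.03, 9.05 and 9.04 in wild type. The wild-type arrays hardly differed, and the knockout arrays stood above them at 2 levels. The means were 9.71 ± 0.23 in knockout (SD, n = 4) and 9.04 ± 0.0095 in wild type (SD, n = 3), which differ by 0.67 (SE 0.13, limma adjusted p = 0.00531). The rise was 1.83-fold in replicates 1 and 2 and 1.39-fold in replicates 3 and 4. With the random blocks Il18 did not pass (adjusted p = 0.0609).

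Irak2 encodes a kinase-like partner of IRAK1 and IRAK4 that sustains signalling from Toll-like and IL-1 family receptors. It read 8.42, 8.57, 7.61 and 7.59 in knockout replicates 1 to 4, against 7.19, 7.10 and 7.07 in wild type. Irak2 differed most between the pairs among the 6 genes, by 0.89 log2 units, with all 4 arrays still above wild type. It averaged 8.05 ± 0.52 in knockout (SD, n = 4) and 7.12 ± 0.06 in wild type (SD, n = 3), a difference of 0.93 (SE 0.26, 95% interval 0.31 to 1.55, limma adjusted p = 0.0257). The fold over wild type was 2.60 in replicates 1 and 2 and 1.40 in replicates 3 and 4. The call was lost with the random blocks (adjusted p = 0.108), against a fold of 1.2 (0.0932), without knockout replicate 1 (0.0545) and without wild-type replicate 1, 2 or 3 (0.0684, 0.0776 and 0.0821).

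The 6 genes differed in how they varied among the knockout arrays. Replicates 1 and 2 minus replicates 3 and 4 gave 0.89 for Irak2, 0.40 for Il18 and 0.14 for Nlrp3, and -0.11 for Aim2, -0.18 for Casp4 and -0.56 for Casp1. Within a pair, the arrays differed by at most 0.15 for any of the genes. No label separates the pairs, so these steps are given without a test.

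**Figure D3:**
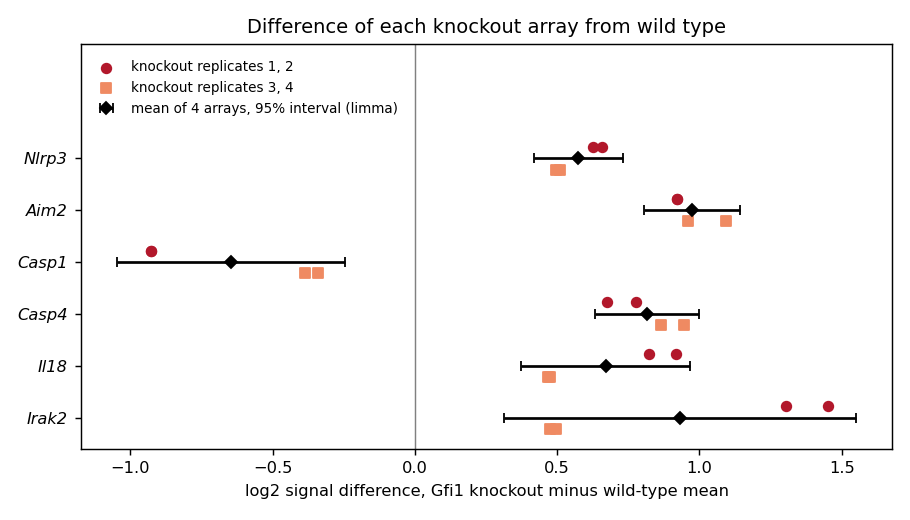
Log2 difference of each knockout array from the wild-type mean for the 6 genes; circles are knockout replicates 1 and 2, squares are replicates 3 and 4, and diamonds with bars are the limma difference with its 95% interval. Aim2 and Nlrp3 have closely grouped arrays, while Irak2 runs from 0.47 to 1.45 and Casp1 from -0.93 to -0.34.

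The genes with the most similar profiles were sought by the root mean square distance, over the 7 arrays, between the log2 differences from the wild-type mean. For Nlrp3 these were Tubb6 (0.035), Wdr46 (0.036) and Dbt (0.039). Aim2 was nearest to Nus1 (0.068), Gemin2 (0.068) and Herc4 (0.086). Casp1 lay nearest to Mb21d2 (0.037), Slc44a1 (0.044) and Ywhab (0.044), and Casp4 to Hif1a (0.048), Nfx1 (0.051) and Msmo1 (0.062). Il18 was nearest to Erdr1 (0.027), Mier2 (0.039) and Sash1 (0.040), and Irak2 to St6galnac4 (0.049), Tmem248 (0.060) and Gpr107 (0.069). None of the 6 genes was among the 3 nearest of another.

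Of 18 listed NOD-like and pyrin-type sensors 9 were measured, and 1 rose, 1 fell and 7 did not pass, where 43.1% of all genes passed (median log2 difference 0.05, beside -0.01 over all genes). Nlrc5, known as a transactivator of MHC class I genes, rose by 0.76 (SE 0.21, limma adjusted p = 0.0235). Nlrp10 fell, with a difference of -1.43 (SE 0.47, adjusted p = 0.0422), though its readings of 2.82 and 2.92 in knockout replicates 1 and 2 were too dim for its size to be certain. The NAIP proteins detect bacterial flagellin and secretion system parts, and Naip2, which had the highest mean signal of the list, stood at 0.04 (SE 0.08, adjusted p = 0.699). Zbp1, a sensor of Z-form nucleic acid that is named here after its values were seen, read 9.05, 9.03, 5.97 and 6.04 in knockout replicates 1 to 4, against 5.69, 5.32 and 5.43 in wild type (adjusted p = 0.0954). Under the random blocks 0 of the 9 passed, beside 9.04% of all genes.

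The AIM2-like receptors are encoded beside Aim2, and 6 of 11 were measured. Of these 2 rose and 0 fell, a share below the 43.1% of all genes that passed, with a median difference of 0.73. Mndal rose by 0.55 (SE 0.11, adjusted p = 0.00688) and Ifi207 by 0.92 (SE 0.27, adjusted p = 0.0292). By array the list's median was 1.37, 1.33, -0.39 and -0.24 for knockout replicates 1 to 4. The pairs were opposite in sign, but the medians of replicates 3 and 4 rest on dim genes described below. Aim2 was higher in all 4, and so were Mndal (0.71, 0.58, 0.61 and 0.29) and Ifi207 (1.40, 1.36, 0.46 and 0.46). The contrast of these genes with the list median was not tested. Ifi209, named after its values were seen, read 6.90, 7.11, 2.08 and 2.58 in knockout, against 2.64, 2.46 and 2.54 in wild type (adjusted p = 0.233), where readings under 3.49 in knockout and 3.51 in wild type are in the range of the lowest 5% of genes. Ifi204, also named after its values were seen, read 2.90 and 2.70 in knockout replicates 3 and 4. In wild type it read 3.01, 3.39 and 3.23, in that range too. The list medians of replicates 3 and 4 lie between Ifi209 and Ifi204, so their sign is uncertain. Without replicates 3 and 4, 6 rose and 0 fell, in a fit where 68.1% of all genes passed. Without replicates 1 and 2, 2 rose and 3 fell, where 57.0% passed. None passed with the random blocks (0 of 6, beside 9.04% of all genes).

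Genes that activate or regulate the sensors moved both ways. Of 25 listed 20 were measured, and 3 rose, 7 fell and 10 did not pass (median -0.07), a share close to the 43.1% over all genes. Among those that fell were P2rx7, the ATP-gated channel, by 1.27 on the log2 scale (SE 0.22, adjusted p = 0.00383), Panx1, a channel that releases ATP, by 1.08 (SE 0.14, adjusted p = 0.00120), and Nek7, the kinase that binds NLRP3, by 0.80 (SE 0.15, adjusted p = 0.00500). P2rx7 read 4.17, 4.17, 4.89 and 4.91 in knockout, against 5.96, 5.75 and 5.70 in wild type, and Nek7 read 8.65, 8.68, 9.18 and 9.11, against 9.64, 9.76 and 9.72. Both were lower in every knockout array, further so in replicates 1 and 2. P2rx7 was dim in knockout, above 11.0% of genes, so the size of its fall is uncertain. Among those that did not pass, and named after their values were seen, Txnip, which binds NLRP3, stood at 0.14 (SE 0.08, adjusted p = 0.230) and Brcc3, which deubiquitinates it, at -0.06 (SE 0.11, adjusted p = 0.670). Ctsb, the lysosomal protease, had the highest mean signal of the list and fell by 0.65 (SE 0.06, adjusted p = 0.000244). In the other direction Gbp7, a guanylate-binding protein, rose by 2.30 (SE 0.22, adjusted p = 0.000311), from a dim wild-type signal that makes its size uncertain, and Eif2ak2, the kinase PKR, by 1.66 (SE 0.17, adjusted p = 0.000395). The random blocks left 5 calls of 20, 2 higher and 3 lower, without Nek7 (adjusted p = 0.0513), beside 9.04% of all genes.

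Of 18 other caspases and partners in cell death 13 were measured, and 4 rose and 6 fell (median -0.21), where 21.5% of all genes rose and 21.6% fell. The 4 that rose were Mlkl, the pore former of necroptosis (1.38, SE 0.16, adjusted p = 0.000724), Cflar, an inhibitor of caspase-8 (1.15, SE 0.10, adjusted p = 0.000198), and the inhibitor of apoptosis genes Birc3 (0.67, SE 0.07, adjusted p = 0.000433) and Birc2, the last named after its values were seen (0.51, SE 0.09, adjusted p = 0.00333). Birc3 had the highest mean signal of the list. Apaf1 and Casp9, which form the apoptosome, fell by 0.67 (SE 0.08) and 0.58 (SE 0.06), with adjusted p = 0.000740 and 0.000447. The remaining falls, named after their values were seen, were in Casp2, Fadd, Casp6 and Ripk3. Their differences were -0.46, -0.42, -0.32 and -0.29, with limma adjusted p = 0.00254, 0.0420, 0.0206 and 0.0316. Casp8, named after its values were seen, stood at -0.07 (SE 0.07, adjusted p = 0.424). Of the 13, 3 passed with the random blocks, each of them higher, beside 9.04% of all genes.

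Among gasdermins, membrane repair genes and the serpin genes listed with them 10 of 13 were measured. Of these 0 rose and 6 fell (median -0.32), where 21.5% of all genes rose and 21.6% fell. Without knockout replicates 3 and 4, 2 rose and 6 fell, in a fit where 68.1% of all genes passed. Gsdme, the gasdermin cut by caspase-3, read 5.85, 5.83, 7.00 and 6.82 in knockout, against 8.17, 8.03 and 8.01 in wild type, and fell by 1.69 (SE 0.31, adjusted p = 0.00481). The serpin genes Serpinb6b and Serpinb9 fell by 1.25 (SE 0.13, adjusted p = 0.000471) and 0.95 (SE 0.09, adjusted p = 0.000367). Serpinb6b was dim in knockout, above 8.83% of genes, so the size of its fall is uncertain. Vps4b and Chmp4b, parts of the ESCRT machinery that repairs gasdermin pores, fell by 0.56 and 0.44 (adjusted p = 0.00170 and 0.00123). Gsdmd, the substrate of caspase-1 and caspase-11, is named after its values were seen and had 7.91, 7.83, 7.31 and 7.25 in knockout, against 7.72, 7.76 and 7.63 in wild type. Its knockout pairs lay on opposite sides of wild type, and the difference of -0.13 (SE 0.18) did not pass (adjusted p = 0.591). Ninj1, which ruptures the membrane late in lytic death and had the highest mean signal of the list, stood at 0.30 (SE 0.23, adjusted p = 0.336). In the fit with random blocks 3 of the 10 passed, each of them lower, beside 9.04% of all genes.

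Of 16 IL-1 family cytokine and receptor genes 5 were measured, and 3 rose and 0 fell (median 0.77), where 43.1% of all genes passed. Il1b, the other main substrate of caspase-1, read 9.01, 9.30, 7.14 and 7.09 in knockout, against 3.92, 3.95 and 4.37 in wild type, a difference of 4.05 (SE 0.59, adjusted p = 0.00183). Its wild-type signal was above only 7.76% of genes and can be partly background, so this size is uncertain. Il18rap, a subunit of the IL-18 receptor, rose by 0.77 (SE 0.11, adjusted p = 0.00147) and Il1rap, the shared accessory chain of IL-1 family receptors, by 0.43 (SE 0.09, adjusted p = 0.00837). Il1rn, the IL-1 receptor antagonist gene, is named after its values were seen and did not pass (adjusted p = 0.241). It read 5.02, 5.20, 1.92 and 3.67 in knockout, against 5.32, 5.11 and 4.96 in wild type. The reading of 1.92 was in the range of the lowest 5% of genes, too dim for its size to be certain. Without knockout replicates 1 and 2, 3 rose and 1 fell, where 57.0% of all genes passed. Without replicates 3 and 4, 4 rose and 0 fell, where 68.1% passed. Il1b and Il18rap, 2 of the 5, also passed with the random blocks, beside 9.04% of all genes.

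Of 18 Myddosome and IRAK signalling genes 14 were measured, and 5 rose and 1 fell (median 0.09), a share like the 43.1% over all genes. Irak3, which encodes the inhibitory family member IRAK-M, read 7.47, 7.49, 7.08 and 7.09 in knockout, against 6.64, 6.39 and 6.36 in wild type, and rose by 0.82 (SE 0.14, adjusted p = 0.00318). Irak1 fell by 0.29 (SE 0.06, adjusted p = 0.00720), so the 3 measured IRAK genes did not move together. The ubiquitin ligase gene Peli1 rose by 0.69 (SE 0.07, adjusted p = 0.000512), the inhibitor gene Tollip by 0.49 (SE 0.10, adjusted p = 0.00842), Map3k7, which encodes the kinase TAK1, by 0.31 (SE 0.07, adjusted p = 0.0139) and Tab2, which had the highest mean signal of the list, by 0.16 (SE 0.06, adjusted p = 0.0475). The adaptor gene Myd88, named after its values were seen, stood at -0.06 (SE 0.07, adjusted p = 0.517). Under the random blocks 0 of the 14 passed, beside 9.04% of all genes.

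**Figure D4:**
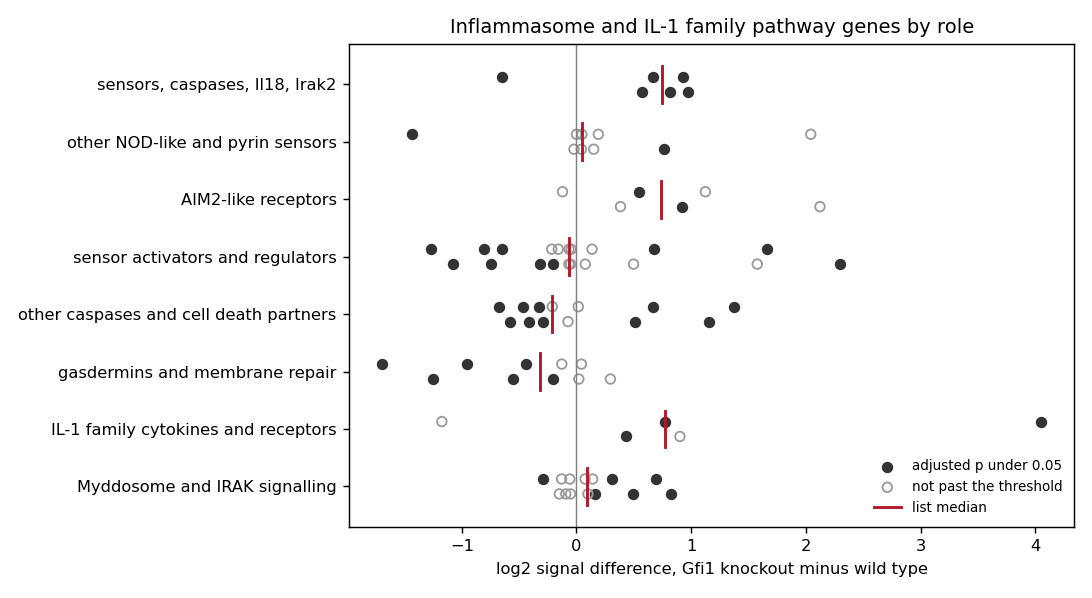
Log2 difference, Gfi1 knockout minus wild type, of every measured gene in the listed roles of the pathway; filled points passed an adjusted p of 0.05 in the limma fit, open points did not, and the vertical strokes are list medians. The top line holds the 6 genes described first, with Casp1 alone to the left of 0. In the line of gasdermins and membrane repair, which also holds serpin genes, those that passed all lie to the left.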

How the data were processed

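The authors deposited 1 column of normalized intensity per array for 19431 probe sets, made with RMA per the submitters' processing notes (version not given). The values are on a linear scale, and log2 was taken with no pseudocount. Normalization between arrays hides any array-wide change in RNA content, and without detection calls a dim signal cannot be told from background. Probe sets with 1 symbol (17335) gave 9999 genes, each represented by its brightest probe set by mean over the 7 arrays. The other 2096 were left out. Groups and replicate numbers came from the titles. All genes were fitted with limma 3.58.1 in R 4.3.3 (2 groups, two-sided moderated test, Benjamini-Hochberg adjustment over 9999 genes, threshold 0.05), after the fit was tested on simulated data. The simulated arrays were independent and had no knockout pairs, so that test cannot show how the pairs affect the calls. The number of arrays limits the precision.

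The genes and lists were chosen with earlier results of these data known. From each list the text names up to 5 genes past the threshold by size, the brightest gene, and genes said to be named after their values were seen. Alternatives covered scaling, dim genes, the variance prior, probe set choice, a fold of 1.2, blocks and left-out arrays. Each measured gene of the main list had 1 probe set, so probe set choice could not change its difference. Counts of the pathway and marker lists under blocks or without a pair were added after seeing the data. Same-numbered arrays of the 2 groups did not deviate together (correlations 0.09, -0.09 and 0.09), so the main fit has no replicate block.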

Additional observations from a re-analysis of the deposited data

How the results depend on the processing

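Nlrp3, Aim2 and Casp4 passed under every alternative that tested them. Their differences were 0.50 to 0.64, 0.92 to 1.05 and 0.72 to 0.91. Their highest adjusted p was 0.0476, 0.0153 and 0.0215, each with the random blocks. Aim2 was left out with the dim genes and has no value there. Il18 (0.67, adjusted p = 0.0609), Casp1 (-0.65, 0.113) and Irak2 (0.93, 0.108) did not pass with the random blocks, so 3 of the 6 genes passed there, and 904 of 9999 genes. Against a fold of 1.2, Casp1 (-0.65, 0.125) and Irak2 (0.93, 0.0932) did not pass, and 1746 genes did. Leaving out 1 array at a time gave -0.75 to -0.55 for Casp1, 0.76 to 1.08 for Irak2, 0.59 to 0.74 for Il18, 4 to 6 of the 6 genes past the threshold and 2879 to 4465 genes. No direction reversed for any of the 6. Only the scaling alternatives could have reversed one, because the groups did not overlap and the other fits kept the same values. Without knockout replicates 3 and 4, 6814 genes passed, and 6 of the 6 passed without either pair. With a replicate block 3805 genes and all 6 of the listed genes passed. Same-numbered arrays share only a number. Quantile normalization or median centring moved the median of all genes to 0.02 or 0.0019 and changed no call of the 6. The causes were not tested. Only 7 arrays and the dim signal of Aim2 limit the sizes given.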
